A study of Mus musculus with 16 samples.

Results

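This account covers 37 interferon response genes in mouse jejunal enteroids, chosen by gene symbol from a table of read counts for 54532 genes. The 37 are transcription factors of the interferon pathway, sensors of nucleic acids and the antiviral effectors that interferon induces, and each symbol was found in the table. RNA came from 16 enteroid cultures, grown from the crypts of the jejunum and then differentiated, with 4 cultures in each of 4 groups. MYO5BΔIEC enteroids carried 2 floxed alleles of Myo5b (Vil-CreERT2;Myo5b-flox/flox) and were kept with vehicle. A second set of the same genotype received Compound-1, an agonist of the lysophosphatidic acid receptor LPAR5, at 100 nM for 2 days during differentiation. MYO5B(G519R) enteroids carried 1 floxed and 1 G519R allele (Vil-CreERT2;Myo5b-flox/G519R), had no further treatment, and keep the mutant allele once the floxed one is removed. All 3 of these groups were exposed to 1 µM 4-OH-tamoxifen for 24 h, which activates Cre recombinase from the Vil1 promoter, active in intestinal epithelium. Control enteroids are labelled as control and untreated. According to the methods they came from the flox/flox line and were given ethanol in place of the drug, while a figure legend calls them healthy littermates. The labels name 4-OH-tamoxifen only for the other groups, so loss of MYO5B and exposure to the drug and to active Cre cannot be told apart in any comparison with control. The donor mice were adults. A figure legend gives 4 cultures from 4 mice in each group, and the labels do not say whether cultures of different groups came from the same mice.

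Interferons are secreted proteins that tell cells to prepare against virus. Type I and type III interferons bind their receptors and activate JAK1 and TYK2, which phosphorylate STAT proteins, and STAT2 and IRF9 are parts of ISGF3, the complex that binds the interferon-stimulated response element (ISRE) in promoters. Type II interferon acts through another promoter element, the gamma-activated sequence (GAS). Among the induced genes are the sensors RIG-I (Ddx58) and MDA5 (Ifih1), which detect viral RNA, and IRF7, which drives more interferon expression, so the pathway feeds itself. In the intestinal epithelium, type III interferon is the better known of these signals.

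Between 27804968 and 40101729 reads were counted per culture, and levels are given as CPM, in which counts are scaled to a common library size, with edgeR's TMM method. A count of 0 allows up to 0.0736 to 0.111 CPM, which covers counting error only. Pairs of groups were tested by the quasi-likelihood method of edgeR on genes that reached 10 counts in 2 or more of the 8 cultures, and a gene passed when its Benjamini-Hochberg (BH) adjusted p over all these genes was under 0.05. The targeted gene, Myo5b, was not clearly lower in MYO5BΔIEC (log2 fold change -0.55, SE 0.19, BH-adjusted p = 0.0503 by edgeR) or in MYO5B(G519R) (log2 fold change -0.33, SE 0.14, BH-adjusted p = 0.109 by edgeR), and was lower with Compound-1 than in control (log2 fold change -0.77, SE 0.19, BH-adjusted p = 0.0146 by edgeR). Control culture 1 stood apart from the other controls, at a log-CPM correlation of 0.968 to 0.973 with them against 0.993 to 0.995 among those. The summed level of 8 epithelial markers was 6970 to 8565 CPM in control, against 10495 to 11208 for MYO5BΔIEC, 9226 to 11623 for MYO5B(G519R) and 11121 to 17328 after Compound-1. Of these markers, 5 of 8 passed as higher in MYO5BΔIEC than in control, 3 of 8 in MYO5B(G519R) and 7 of 8 with Compound-1, and their part in the results below was not tested. Among 16 immune markers, Cd3d, Adgre1 and Nkg7 were at 0 in every culture and Ptprc, which marks all leukocytes, had at most 6 counts. Others were present: Itgam had 37 to 84 counts per culture, Cd14 at least 229 and Csf1r at most 43. The summed immune level of 9.03 to 11.1 CPM in control, 10.3 to 12.9 for MYO5BΔIEC, 9.16 to 15.3 for MYO5B(G519R) and 12.8 to 31.5 after Compound-1 came mostly from Cd14, which reached 1156 counts in treated culture 3. Markers of fibroblasts and endothelium summed to at most 0.956 and 1.76 CPM. In bulk RNA, fewer cells of a type and less RNA per cell cannot be told apart.

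The promoters of these genes are shown first, since the ISRE is the sequence that ISGF3 is known to bind. RefSeq promoters (GRCm38.p6, 250 bases before to 50 after each start site) were matched for 29 of the 37 genes. The ISRE core GAAANNGAAA, searched on both strands, was present in 18 of these 29 genes (62.1%) and in 1079 of 27025 genes with a promoter (3.99%). The GAS core TTCNNNGAA, which reads the same on both strands, was in 6 of 29 genes (20.7%) and in 9.55% of all, and 4 genes (Bst2, Gbp7, Igtp and Oas1a) held both, with overlapping letters in 1 gene. The 200 bases before the start site follow for 6 genes, 5′ to 3′ along the gene, with the ISRE core in capitals on whichever strand it was found. Isg15 is the classical target of the pathway, Ifit3 and Ifit3b are the paralogs that changed most in their family, Oas3 had the highest log2 fold change against control in MYO5BΔIEC, Trim30d had the smallest p with Compound-1, and Oasl1 had the smallest p against control.
Isg15 (chr4:156200819-156201018, minus strand): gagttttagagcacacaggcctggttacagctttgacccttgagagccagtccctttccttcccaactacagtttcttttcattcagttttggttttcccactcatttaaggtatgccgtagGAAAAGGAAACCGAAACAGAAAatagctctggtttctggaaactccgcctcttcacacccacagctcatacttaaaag
Ifit3 (chr19:34583329-34583528, plus strand): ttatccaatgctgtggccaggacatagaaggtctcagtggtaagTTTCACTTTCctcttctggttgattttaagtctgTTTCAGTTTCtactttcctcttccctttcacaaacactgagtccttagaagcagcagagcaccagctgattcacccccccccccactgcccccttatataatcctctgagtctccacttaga
Ifit3b (chr19:34607757-34607956, plus strand): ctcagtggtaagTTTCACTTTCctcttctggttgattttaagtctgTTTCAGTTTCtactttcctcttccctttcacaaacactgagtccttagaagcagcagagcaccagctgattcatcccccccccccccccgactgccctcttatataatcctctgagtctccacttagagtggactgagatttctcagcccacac
Oas3 (chr5:120777660-120777859, minus strand): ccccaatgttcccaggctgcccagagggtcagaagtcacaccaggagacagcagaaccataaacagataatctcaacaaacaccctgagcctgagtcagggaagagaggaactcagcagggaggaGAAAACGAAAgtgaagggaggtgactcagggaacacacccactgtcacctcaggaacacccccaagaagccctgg
Trim30d (chr7:104507850-104508049, minus strand): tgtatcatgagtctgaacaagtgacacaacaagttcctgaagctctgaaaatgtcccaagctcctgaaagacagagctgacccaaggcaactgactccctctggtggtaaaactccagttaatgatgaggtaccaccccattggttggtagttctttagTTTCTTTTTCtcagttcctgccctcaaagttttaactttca
Oasl1 (chr5:114923040-114923239, plus strand): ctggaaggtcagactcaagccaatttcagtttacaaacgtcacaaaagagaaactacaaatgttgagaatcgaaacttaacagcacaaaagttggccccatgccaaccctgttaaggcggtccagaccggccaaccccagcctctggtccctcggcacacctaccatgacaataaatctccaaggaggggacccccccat
Counting the start site's upstream neighbour as position -1, the Isg15 stretch held 3 overlapping cores that begin at -78, -72 and -66. Ifit3 and Ifit3b held the same pair of cores (TTTCACTTTC, then TTTCAGTTTC), which begin at -156 and -122 in Ifit3 and at -188 and -154 in Ifit3b. Oas3 held 1 core at -75 and Trim30d 1 at -41, while the printed stretch of Oasl1 held none. In MYO5BΔIEC against control, 6 of the 17 tested genes with a core passed (median log2 fold change 1.21) and 6 of the 11 without one (median 1.08).

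In MYO5BΔIEC enteroids, 17 of the 35 interferon response genes tested were higher than in control and none was lower (48.6%), where 13.5% of all genes tested passed as higher and 27.4% in either direction. The 17 were the transcription factors Irf7 and Stat2, the sensors Ddx58, Dhx58 and Zbp1, the effectors Ifit3, Ifit3b, Oas2, Oas3, Oasl1, Oasl2, Mx2, Cmpk2 and Trim25, and Rnf213, Parp14 and Trim30d. The median log2 fold change of the 35 was 1.22, where that of all genes was -0.01, and 31 of the 35 were above 0. Without any overlap between the groups, 6 genes were higher (Ddx58, Oasl1, Rnf213, Trim25, Trim30d and, barely, Zbp1), as were 13% of all genes tested. The 2 genes not tested were Iigp1, at 0 counts in all 16 cultures, and Gbp3, at 19 counts or fewer. Gbp2 and Oas2 entered the test only through the MYO5BΔIEC cultures, so they could hardly have come out lower. The count of 17 was 7, all higher, without control culture 3 or 4 (20%, all genes 8.55% and 8.45% as higher, 16.8% and 16.7% in either direction). It was 6, all higher, without MYO5BΔIEC culture 2 (17.6%, all genes 8.85% as higher and 16.8% in either direction). Without MYO5BΔIEC culture 3 it was 9, all higher (26.5%, all genes 11.2% as higher and 22.5% in either direction). Without control culture 1 it was 23, with 1 of them lower (65.7%, all genes 42% in either direction).

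In MYO5B(G519R) enteroids, 6 of 34 genes tested were higher than in control and none lower: Irf7, Stat2, Oas3, Oasl1, Rnf213 and Trim25 (17.6%, where 13.1% of all genes tested passed as higher and 26.8% in either direction). That share lies close to the background. The median log2 fold change was 0.72, where that of all genes was -0.05, and 30 of the 34 were above 0. Oas2 entered this test only through the MYO5B(G519R) cultures, so it could hardly have come out lower. Stat2, Oasl1 and Trim25, 3 genes, were higher with no overlap, as were 13.6% of all genes tested. Leaving out control culture 3 gave 3 genes, all higher (8.82%, all genes 8.22% as higher and 16.3% in either direction). Leaving out MYO5B(G519R) culture 4 gave 12, all higher (35.3%, all genes 12.1% as higher and 25% in either direction). Without control culture 1 there were 13, with 1 of them lower (38.2%, all genes 46.2% in either direction). DESeq2 gave 11, all higher (32.4%, where 16.7% of all genes passed as higher and 32.4% in either direction). This comparison and the one before use the same 4 controls, so they are not independent. The enteroids with Compound-1 differed from the same controls in 11 of 34 genes, with 9 higher and 2 lower (32.4%, where 29.4% of all genes passed in either direction, 15.7% as higher and 13.7% as lower). Leaving out control culture 1 raised that number to 17 (50%, all genes 42.1% in either direction). Leaving out control culture 2 lowered it to 7, all higher (20.6%, all genes 10.9% as higher and 19.2% in either direction). Without control culture 3 or 4 or treated culture 3 it was 6, with 1 of them lower (17.6%, all genes 16.7% to 18.9% in either direction).

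**Figure D1:**
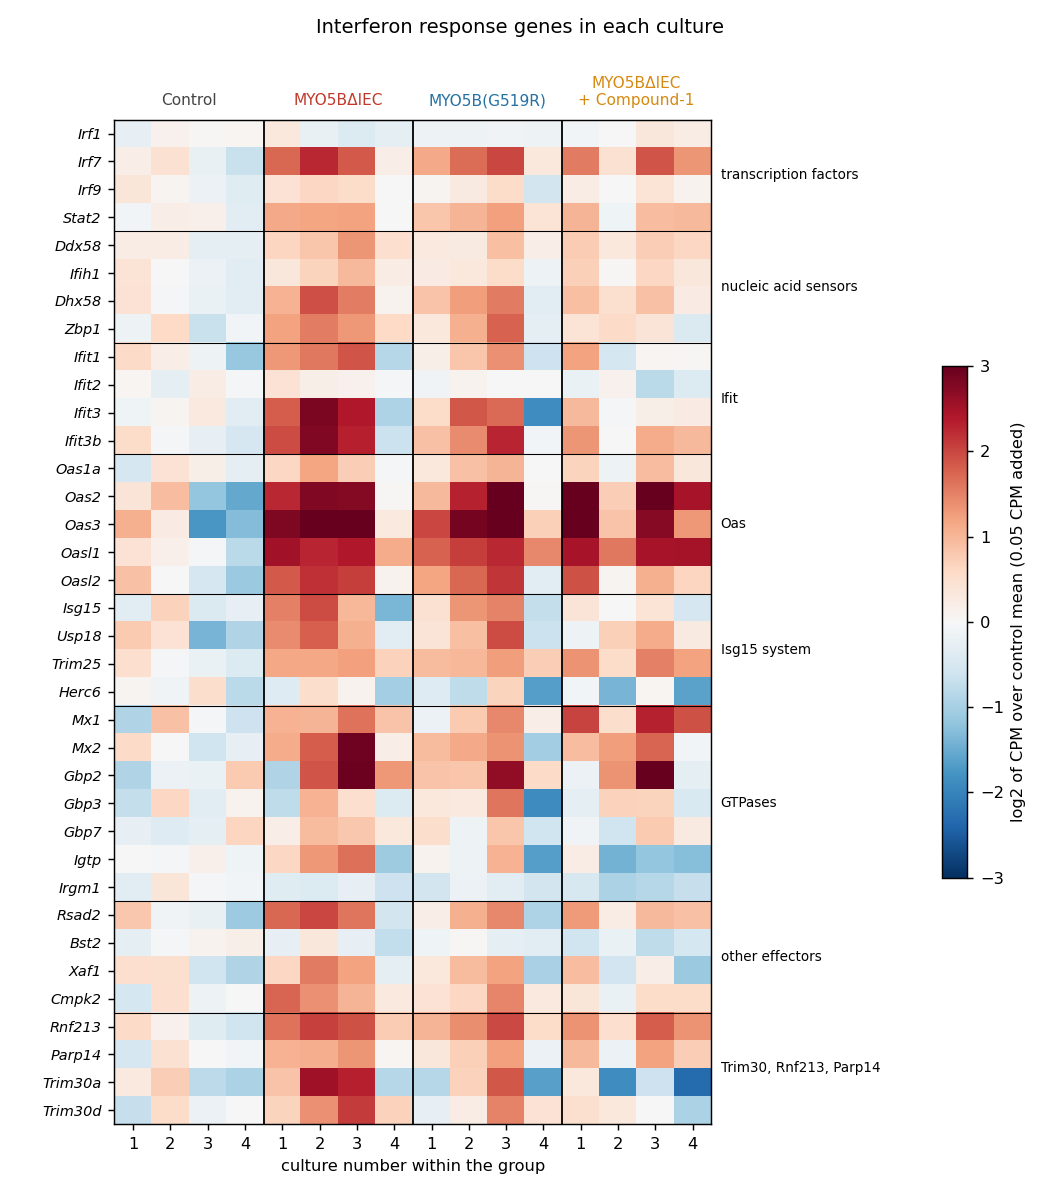
Level of each gene in each culture, as the log2 of its CPM over the mean of the 4 controls with 0.05 CPM added to both (rows, genes by role; columns, cultures 1 to 4 of each group; colors saturate at 3 either side of 0). MYO5BΔIEC cultures 1 to 3 and MYO5B(G519R) culture 3 are red in most rows, culture 4 of both groups is near white or blue in most, and Irf1, Ifit2, Bst2 and Irgm1 are pale throughout.

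**Figure D2:**
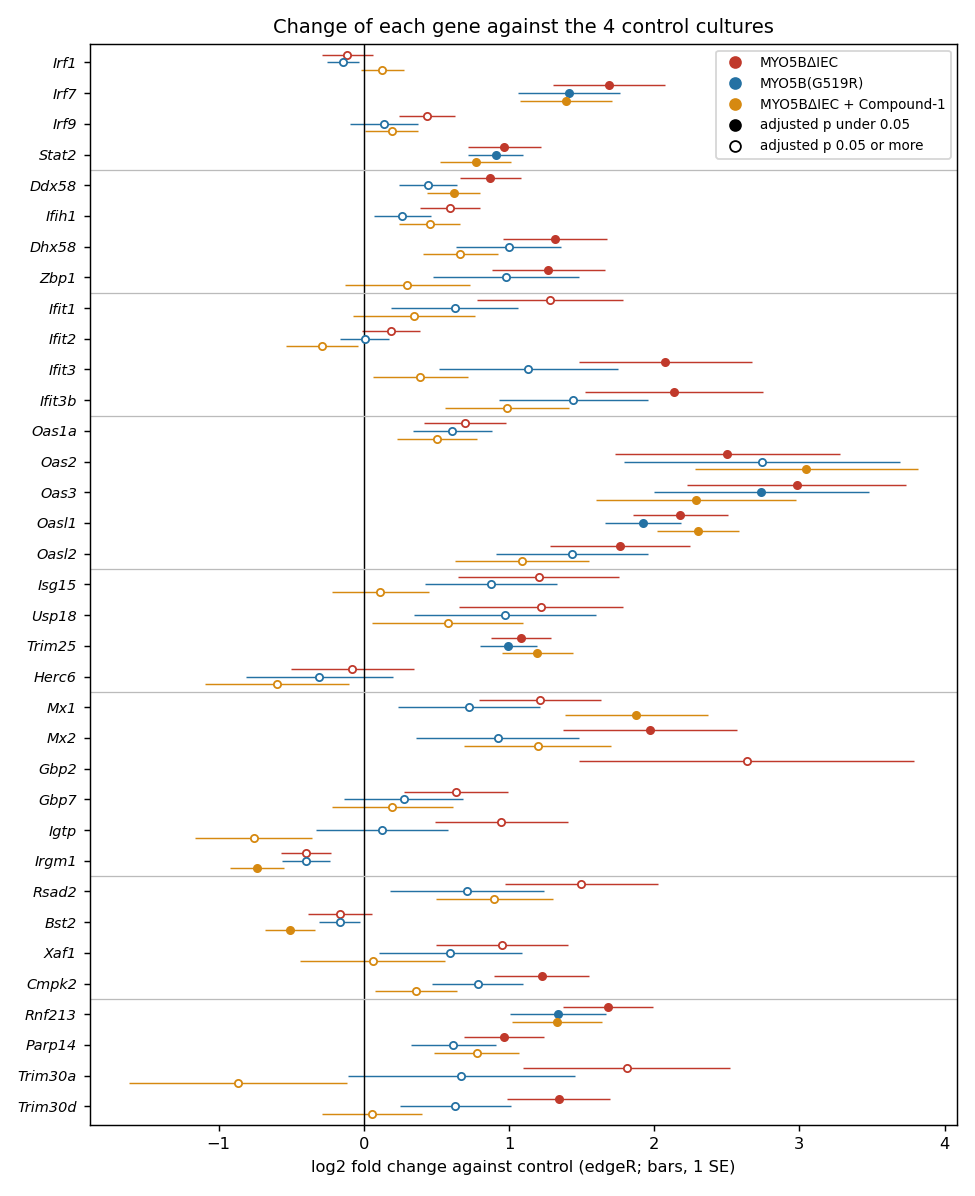
Log2 fold change against the 4 controls (edgeR, bars of 1 SE) for the 35 genes tested in MYO5BΔIEC, with the values of MYO5B(G519R) and of MYO5BΔIEC with Compound-1 where tested (filled, adjusted p under 0.05). Oas3 lies farthest to the right for MYO5BΔIEC, at 2.98, and Oasl1 has short bars at 2.18, 1.92 and 2.30 in the 3 groups.

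Measured per length, with the FPKM values of the deposited table, the genes started from very different levels. Bst2, a membrane protein that tethers virus particles, was the highest in control at 22.5 ± 2.73 FPKM (SD, n = 4), followed by Irf1, Oasl1 and Trim25 at 13.1 ± 1.32, 12.4 ± 4.13 and 12.0 ± 3.59. In MYO5BΔIEC the highest was Oasl1 at 57.2 ± 20.6 FPKM, above Trim25 at 25.8 ± 4.29 and Bst2 at 20.5 ± 6.67. Of the 37 genes, the mean was over 1 FPKM for 20 in control, 20 with Compound-1, 25 in MYO5BΔIEC and 23 in MYO5B(G519R).

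Of the transcription factors, Irf7 and Stat2 rose in both models and Irf1 and Irf9 did not pass. Irf7 (ENSMUSG00000025498, chromosome 7, 141262706 to 141266481), the factor that amplifies type I interferon expression, was at 13.9, 16.5, 10.4 and 7.56 CPM in control cultures 1 to 4. It reached 40.01, 57.6, 43.2 and 13.9 CPM in MYO5BΔIEC cultures 1 to 4 and 26.6, 38.8, 48.4 and 15.1 in MYO5B(G519R). Only culture 4 of each model fell inside the control range. On the log2 scale it changed by 1.69 (SE 0.38, BH-adjusted p = 0.00967 by edgeR) in MYO5BΔIEC and 1.42 (SE 0.35, BH-adjusted p = 0.0162 by edgeR) in MYO5B(G519R). The second call was lost without control culture 3 or MYO5B(G519R) culture 3 (adjusted p up to 0.0523). Irf7 overlaps 45 bases of Phrf1 on the opposite strand, and the strand setting of the counts is not given in the sources used here.

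Stat2 (chromosome 10, 128270559 to 128292849), the STAT that is particular to type I and type III signaling, was at 25.1, 30.5, 29.8 and 21.6 CPM in the controls. In MYO5BΔIEC it was at 59.0, 60.5, 61.8 and 27.1 CPM, with culture 4 inside the control range and the others at about the same level. All 4 MYO5B(G519R) cultures were above every control, at 47.6, 54.6, 63.2 and 35.4 CPM. Its log2 fold change was 0.97 (SE 0.25, BH-adjusted p = 0.0163 by edgeR) in MYO5BΔIEC and 0.91 (SE 0.19, BH-adjusted p = 0.00763 by edgeR) in MYO5B(G519R), and the first call was lost without control culture 4 or MYO5BΔIEC culture 2 (adjusted p up to 0.0542). Irf9, the DNA-binding part of ISGF3, was at 24.3, 20.01, 16.9 and 14.9 CPM in control, against 25.6, 29.5, 27.9 and 19.2 for MYO5BΔIEC and 20.1, 23.02, 27.8 and 12.9 for MYO5B(G519R), and did not pass in either (BH-adjusted p = 0.12 and 0.703 by edgeR). Irf1, a factor most responsive to type II interferon, was at 45.1, 58.7, 54.9 and 56.1 CPM in control, against 66.7, 45.8, 40.4 and 44.4 for MYO5BΔIEC and 48.1, 47.99, 50.01 and 48.4 for MYO5B(G519R). Its groups overlapped, with log2 fold changes of -0.11 (SE 0.18) and -0.14 (SE 0.11).

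The sensors rose in MYO5BΔIEC, where 3 of 4 passed, and none passed in MYO5B(G519R). Ddx58 (chromosome 4, 40203773 to 40239828), which encodes RIG-I, was at 22.5, 22.7, 16.1 and 15.9 CPM in control and at 30.4, 34.4, 48.5 and 27.5 in MYO5BΔIEC, so that the groups did not overlap. Its log2 fold change there was 0.87 (SE 0.21, BH-adjusted p = 0.0119 by edgeR). In MYO5B(G519R) it was at 23.5, 23.1, 36.3 and 22.1 CPM, with culture 3 apart from the others and a log2 fold change of 0.44 (SE 0.20, BH-adjusted p = 0.13 by edgeR). Dhx58, the LGP2 helicase that regulates RIG-I and MDA5, was at 4.70, 3.36, 2.98 and 2.78 CPM in control, against 7.13, 13.3, 10.1 and 3.69 for MYO5BΔIEC and 6.33, 8.25, 10.3 and 2.77 for MYO5B(G519R). Cultures 1 to 3 of both models lay above the controls and culture 4 did not. Its log2 fold change was 1.32 (SE 0.36, BH-adjusted p = 0.0212 by edgeR) and 1.00 (SE 0.36, BH-adjusted p = 0.0661 by edgeR).

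Zbp1, a sensor of Z-form nucleic acids that can start necroptosis, was close to the limit of counting, at 0.533, 0.931, 0.352 and 0.556 CPM in control, against 1.44, 1.83, 1.52 and 0.931 for MYO5BΔIEC and 0.746, 1.30, 2.15 and 0.482 for MYO5B(G519R). The lowest MYO5BΔIEC culture and the highest control were both at 0.931 CPM, and the log2 fold change was 1.27 (SE 0.39, BH-adjusted p = 0.0335 by edgeR) and 0.98 (SE 0.50, BH-adjusted p = 0.176 by edgeR). Ifih1, which encodes MDA5, was at 34.7, 26.3, 23.03 and 20.5 CPM in control, against 33.2, 41.8, 51.2 and 30.7 for MYO5BΔIEC and 31.02, 32.5, 38.6 and 23.4 for MYO5B(G519R), and did not pass (BH-adjusted p = 0.0566 and 0.35 by edgeR). The call of Ddx58 held with each culture left out in turn, whereas that of Dhx58 was lost without control culture 2, 3 or 4 or MYO5BΔIEC culture 2 or 3 (adjusted p up to 0.0732), and that of Zbp1 without control culture 3 or 4 or MYO5BΔIEC culture 1, 2 or 3 (up to 0.103). Zbp1 also lost it with a replicate block and with no filter on low counts (up to 0.0595).

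The Ifit genes encode antiviral proteins and stand side by side on chromosome 19 (34550694 to 34650009). The protein of Ifit1 binds viral RNA lacking the host's cap methylation. Ifit3 and Ifit3b rose in MYO5BΔIEC, by log2 fold changes of 2.08 (SE 0.60, BH-adjusted p = 0.0259 by edgeR) and 2.13 (SE 0.61, BH-adjusted p = 0.0261 by edgeR), and Ifit1 and Ifit2 did not pass (log2 fold change 1.28 and 0.19). Ifit3b was at 0.815, 0.532, 0.449 and 0.370 CPM in control and 2.25, 4.02, 2.94 and 0.330 in MYO5BΔIEC. Culture 4 was below every control and the other cultures above all of them. In MYO5B(G519R) it was at 1.04, 1.54, 2.83 and 0.513 CPM with a log2 fold change of 1.44 (SE 0.51, BH-adjusted p = 0.0619 by edgeR), and no Ifit gene passed. Ifit2, at 118 to 232 counts per culture, varied little. Of the 100-base windows of their transcripts, 31.7% in Ifit3 and 27.4% in Ifit3b are shared between the pair, so how reads were divided between them is uncertain. Leaving out control culture 2, 3 or 4 or MYO5BΔIEC culture 2 or 3 ended the calls of both, and culture 1 that of Ifit3b (adjusted p up to 0.0861 and 0.0875). Both calls were also lost with a replicate block and by limma on FPKM with either pseudocount (adjusted p up to 0.119 and 0.085).

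The Oas genes, on chromosome 5, held the highest log2 fold change past the threshold in each model, that of Oas3. They encode synthetases whose short RNA product activates RNase L, and the related Oasl proteins. In MYO5BΔIEC 4 of 5 passed: Oas3 (log2 fold change 2.98, SE 0.76), Oas2 (2.504, SE 0.77), Oasl1 (2.18, SE 0.33) and Oasl2 (1.77, SE 0.48), at BH-adjusted p values of 0.0155, 0.0349, 0.00203 and 0.021 by edgeR. Oas3 (120753098 to 120777661) was at 2.32, 1.30, 0.288 and 0.408 CPM in control and 7.85, 15.9, 9.02 and 1.32 in MYO5BΔIEC. In MYO5B(G519R) it was at 4.45, 8.14, 14.6 and 1.81 CPM, with a log2 fold change of 2.74 (SE 0.74, BH-adjusted p = 0.0228 by edgeR). In both models culture 4 lay within the control range, whose own highest and lowest values were 2.32 and 0.288 CPM.

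Oasl1 (114923240 to 114937915), a known inhibitor of Irf7 translation, is described as well because it had the smallest p in all 3 comparisons with control, a choice made after its values were seen. It was at 44.6, 36.6, 32.3 and 19.04 CPM in control, against 190.9, 160.7, 175.2 and 71.4 for MYO5BΔIEC and 113.2, 138.7, 160.0 and 90.5 for MYO5B(G519R), and no culture of either model overlapped the controls. The log2 fold change in MYO5B(G519R) was 1.92 (SE 0.26, BH-adjusted p = 0.00211 by edgeR). Oas2 had between 1 and 136 counts per culture and entered the test of each model only through that model's cultures. In MYO5B(G519R) its log2 fold change of 2.74 had an SE of 0.95 and did not pass (BH-adjusted p = 0.0567 by edgeR). Oas1a was at log2 fold changes of 0.70 and 0.61 that did not pass, with 40.9% of its windows shared with Oas1g. With cultures left out in turn, Oasl1 kept both calls, Oas3 lost that in MYO5BΔIEC without MYO5BΔIEC culture 2 (adjusted p = 0.0525) and that in MYO5B(G519R) without control culture 2, 3 or 4 or MYO5B(G519R) culture 2 or 3 (up to 0.0721). Oas2 lost its call without control culture 3 or 4 or MYO5BΔIEC culture 1, 2 or 3 (up to 0.0956), and Oasl2 without any culture except control culture 1 or MYO5BΔIEC culture 4 (up to 0.0644).

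**Figure D3:**
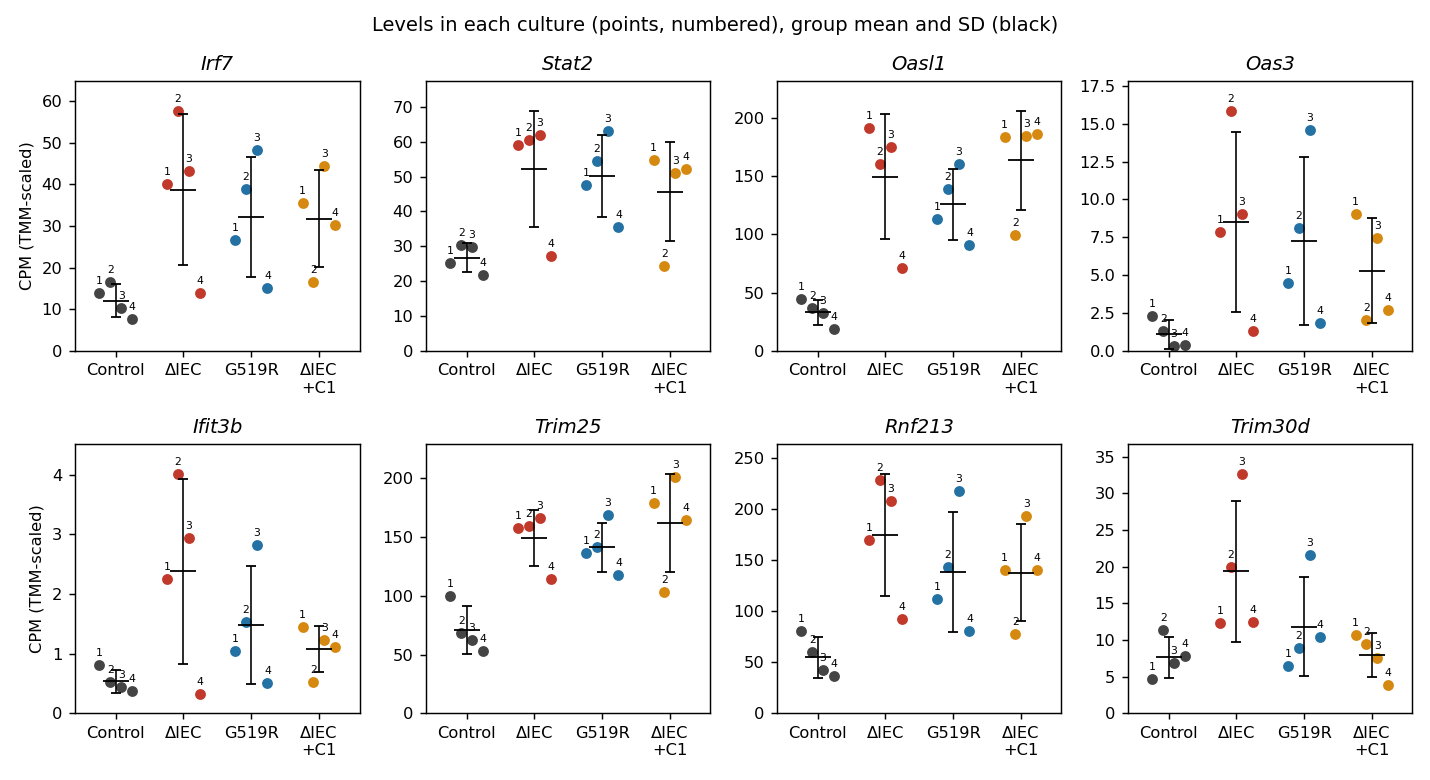
CPM of 8 genes in each culture (points, numbered within the group), with the group mean and SD in black. Oasl1 and Trim25 show no overlap of either model with control, and in Irf7, Stat2, Oas3 and Ifit3b culture 4 of MYO5BΔIEC falls into the control range or below it.

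In the Isg15 system, which attaches the ubiquitin-like ISG15 to proteins, only Trim25 passed. Trim25 (chromosome 11, 88999376 to 89020293), a ubiquitin ligase that activates RIG-I, was at 99.6, 68.1, 62.1 and 53.2 CPM in control, against 157.8, 159.2, 165.7 and 113.8 for MYO5BΔIEC and 136.6, 141.3, 168.4 and 117.6 for MYO5B(G519R). Every culture of both models was above every control. Its log2 fold change was 1.08 (SE 0.20, BH-adjusted p = 0.00444 by edgeR) and 0.99 (SE 0.20, BH-adjusted p = 0.00639 by edgeR), and both calls held with each culture left out in turn. Isg15 itself, at 1.23 to 12.8 CPM in MYO5BΔIEC and 2.40 to 5.35 CPM in control, had a log2 fold change of 1.21 (SE 0.55) and did not pass (BH-adjusted p = 0.129 by edgeR). Usp18, which removes ISG15 and inhibits the type I receptor, was at 1.22 (SE 0.56) and Herc6, the ISG15 ligase of mice, at -0.08 (SE 0.43), and neither passed.

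Of the 8 GTPases, which disturb virus or the vacuoles of intracellular microbes, 6 were tested in MYO5BΔIEC and 1 rose, Mx2. Mx2 is annotated as a polymorphic pseudogene, and the other members as protein coding. Mx2 (chromosome 16, 97535308 to 97560900) was low throughout, at 0.564, 0.366, 0.224 and 0.296 CPM in control, against 0.839, 1.41, 3.08 and 0.420 for MYO5BΔIEC and 0.746, 0.858, 1.01 and 0.151 for MYO5B(G519R). The log2 fold change was 1.97 (SE 0.60, BH-adjusted p = 0.0332 by edgeR) and 0.92 (SE 0.56, BH-adjusted p = 0.253 by edgeR), and the first was lost without control culture 2, 3 or 4 or MYO5BΔIEC culture 2 or 3 (adjusted p up to 0.112), as well as with a replicate block and by limma on FPKM with either pseudocount (up to 0.113). Its neighbor Mx1 was at 0.501, 1.86, 0.961 and 0.630 CPM in control, against 2.10, 2.07, 3.19 and 1.83 for MYO5BΔIEC and 0.866, 1.75, 2.77 and 1.15 for MYO5B(G519R), and did not pass (BH-adjusted p = 0.0523 and 0.304 by edgeR). Igtp and Irgm1, GTPases of intracellular defense, did not pass in either model: the log2 fold change of Igtp was 0.95 for MYO5BΔIEC and 0.13 in the other model, and that of Irgm1 -0.40 in each. Gbp7 was at 0.64 and 0.27, Gbp2 at 34 counts or fewer and Gbp3 at 0.0627, 0.233, 0.0961 and 0.148 CPM in control, against 0.0599, 0.330, 0.212 and 0.0901 for MYO5BΔIEC and 0.179, 0.178, 0.517 and 0 for MYO5B(G519R), where all its groups overlapped.

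Among the remaining effectors, Cmpk2, Rnf213, Parp14 and Trim30d rose in MYO5BΔIEC, and of these Rnf213 in MYO5B(G519R) as well. Rnf213 (chromosome 11, 119393100 to 119487418), a giant ubiquitin ligase that coats intracellular bacteria, was at 81.1, 59.8, 42.3 and 36.1 CPM in control, against 169.8, 228.5, 207.7 and 92.7 for MYO5BΔIEC and 111.6, 143.7, 217.6 and 80.8 for MYO5B(G519R). No MYO5BΔIEC culture and 1 MYO5B(G519R) culture, at 80.8 against 81.1 CPM, came down to the control range. The log2 fold change was 1.68 (SE 0.31, BH-adjusted p = 0.00416 by edgeR) and 1.34 (SE 0.33, BH-adjusted p = 0.0154 by edgeR), and the second was lost without control culture 3 (adjusted p = 0.0509). Cmpk2 (chromosome 12, 26469204 to 26479837), a mitochondrial nucleotide kinase, was at 2.63, 5.42, 3.46 and 3.82 CPM in control and 13.0, 10.1, 7.86 and 4.68 in MYO5BΔIEC, with a log2 fold change of 1.22 (SE 0.33, BH-adjusted p = 0.0198 by edgeR). In MYO5B(G519R) it was at 5.16, 5.89, 10.7 and 4.67 CPM and did not pass (BH-adjusted p = 0.0896 by edgeR). Rsad2, the antiviral enzyme viperin encoded next to it, was at 1.50 (SE 0.53) in MYO5BΔIEC and did not pass (BH-adjusted p = 0.0573 by edgeR).

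Trim30d (chromosome 7, 104470014 to 104507849), of a mouse family of TRIM proteins, was at 4.70, 11.3, 6.82 and 7.78 CPM in control, against 12.3, 20.02, 32.7 and 12.5 for MYO5BΔIEC and 6.48, 8.91, 21.6 and 10.4 for MYO5B(G519R). All 4 MYO5BΔIEC cultures were above the controls, with a log2 fold change of 1.34 (SE 0.35, BH-adjusted p = 0.0183 by edgeR), and MYO5B(G519R) overlapped them. Parp14, an ADP-ribosyltransferase, changed in MYO5BΔIEC by a log2 fold change of 0.96 (SE 0.27, BH-adjusted p = 0.0249 by edgeR), and the value for MYO5B(G519R) was 0.62 (SE 0.29, BH-adjusted p = 0.146 by edgeR). With cultures left out in turn, Trim30d lost its call without control culture 3 (adjusted p = 0.0556), Cmpk2 without control culture 3 or 4 or MYO5BΔIEC culture 1 or 2 (up to 0.062) and Parp14 without control culture 3 or 4 or MYO5BΔIEC culture 1, 2 or 3 (up to 0.0705). Parp14 also lost it once the dependence on gene length was taken out (adjusted p = 0.118). Bst2 and Xaf1 did not pass, at -0.17 and 0.95, and Trim30a had between 2 and 100 counts per culture.

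In both models, 1 culture held the lowest value of most genes. MYO5BΔIEC culture 4 was the lowest of its group in 31 of the 36 detected genes (86.1%), where it was the lowest in 27.2% of all genes. MYO5B(G519R) culture 4 was the lowest of its group in 32 (88.9%, all genes 30.7%) and culture 3 the highest in 32 (88.9%, all genes 33.9%). Counted against the controls, 29, 33 and 30 of the 36 genes were above all 4 controls in MYO5BΔIEC cultures 1, 2 and 3, and 7 in culture 4. The corresponding counts were 14, 23, 32 and 3 in MYO5B(G519R) cultures 1 to 4. The median log2 ratio to the control mean was 1.04, 1.46, 1.33 and 0.03 over MYO5BΔIEC cultures 1 to 4 and 0.33, 0.85, 1.44 and -0.22 over MYO5B(G519R) cultures 1 to 4. The controls were less uniform: culture 4 was the lowest in 19 of 36 (52.8%, all genes 22.4%), and culture 1 the highest in 14 (38.9%, all genes 38.1%) and the lowest in 10. Without MYO5BΔIEC culture 4, 24 genes passed in MYO5BΔIEC against control, all higher (68.6%, all genes 13.1% as higher and 26.8% in either direction).

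**Figure D4:**
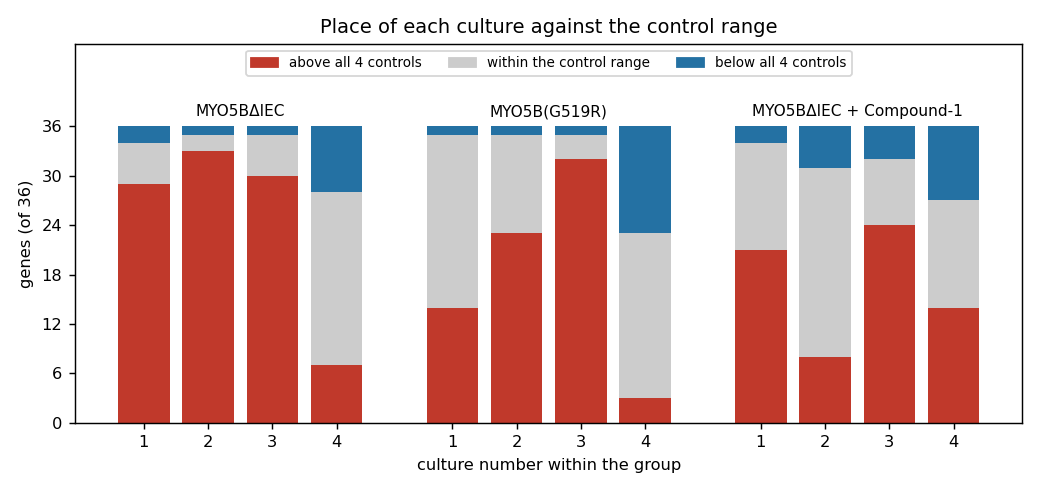
Number of the 36 detected genes above all 4 controls (red), within the control range (gray) and below all 4 controls (blue) in each culture of the other 3 groups. Red reaches 33 of 36 in MYO5BΔIEC culture 2 and 32 in MYO5B(G519R) culture 3, and only 7 and 3 in culture 4 of these groups.

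Against MYO5BΔIEC enteroids with vehicle, those with Compound-1 showed no gene past the threshold among 36 tested, where 0% of all genes tested passed (0 of 18037). Of the 36 genes, 31 were below 0 and 5 above, with a median log2 fold change of -0.48 where that of all genes was near 0.00. Enterocyte markers lay the same way, with 9 of 10 below 0, a median of -0.77 and none past the threshold, and summed to 6219 to 12509 CPM with vehicle, 5379 to 7760 with Compound-1 and 3352 to 16092 in control. Their part in the values of the interferon genes was not tested. At an unadjusted p under 0.05 there were 7 genes in edgeR, all of them lower (19.4%, where 7.51% of all genes were in either direction). In DESeq2 there were 10 (27.8%, all genes 8.47% in either direction). DESeq2 passed none of the 36 after adjustment and 91 of all genes (0.505%). The 7 were Trim30d, Trim30a, Igtp, Cmpk2, Ifit3, Zbp1 and Irgm1. From its own DESeq2 analysis of these cultures, the paper reported Trim30 among the genes that Compound-1 reversed. The members were chosen with earlier results of these data known, so their share is not independent support for a fall.

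The smallest p was that of Trim30d, at 10.8, 9.52, 7.61 and 3.94 CPM with Compound-1 against 12.3, 20.02, 32.7 and 12.5 with vehicle. All 4 treated cultures were below all 4 vehicle cultures, and none was above the highest control. The log2 fold change was -1.32 (SE 0.37, unadjusted p = 0.004389, BH-adjusted p = 0.532 by edgeR, from a model across all genes). Its neighbor Trim30a had the lowest log2 fold change, at -2.72 (SE 0.82, BH-adjusted p = 0.532 by edgeR), on 2 to 100 counts per culture over all groups. Zbp1 also did not overlap between the groups, but barely, at 0.804, 0.908, 0.785 and 0.428 CPM with Compound-1 against 0.931 to 1.83 with vehicle. That made 2 genes that did not overlap and were lower, where 1.27% of all genes were. Igtp, which overlaps 7974 bases of Irgm2 on the same strand so that the division of reads is uncertain, was at -1.74 (SE 0.57), Ifit3 at -1.72 (SE 0.60), Cmpk2 at -0.89 (SE 0.31) and Irgm1 at -0.36 (SE 0.16).

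In the other direction, the smallest p was that of Mx1, at 4.19, 1.44, 5.08 and 3.85 CPM with Compound-1 against 2.10, 2.07, 3.19 and 1.83 with vehicle (log2 fold change 0.63, SE 0.37, BH-adjusted p = 0.774 by edgeR). The groups overlapped. Of the 5 genes whose call in MYO5BΔIEC against control held with each culture left out, Trim25 was at 0.08 (SE 0.20), Oasl1 at 0.09 (SE 0.29), Ddx58 at -0.28 (SE 0.19), Irf7 at -0.33 (SE 0.38) and Rnf213 at -0.38 (SE 0.30). Treated cultures also differed among themselves. Treated culture 2 was the lowest of its group in 22 of 36 genes (61.1%, all genes 29.4%), and 21, 8, 24 and 14 of 36 were above all controls in treated cultures 1 to 4. Without MYO5BΔIEC culture 4, the count at an unadjusted p under 0.05 was 18 of 36 (50%, all genes 9.3%), and none passed after adjustment.

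**Figure D5:**
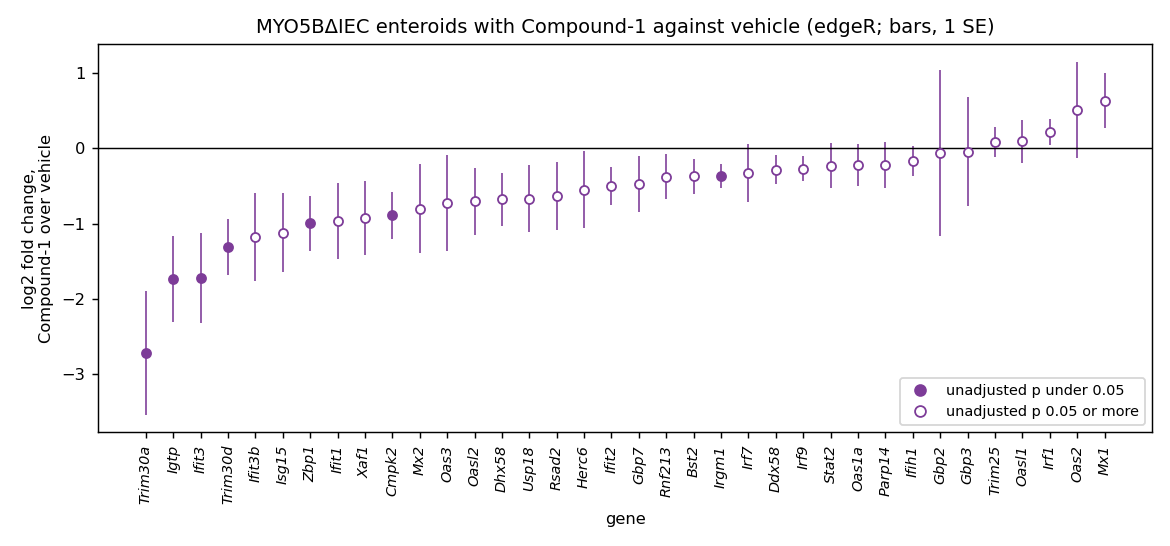
Log2 fold change of 36 genes in MYO5BΔIEC enteroids with Compound-1 against vehicle (edgeR, bars of 1 SE), ordered by size. The 7 filled points, all below 0, have an unadjusted p under 0.05, and no gene passed after adjustment.

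Set against control, the treated enteroids had 9 genes higher: Oasl1 (log2 fold change 2.30), Oas3 (2.29), Mx1 (1.88), Irf7 (1.39), Rnf213 (1.33), Trim25 (1.19), Stat2 (0.77), Ddx58 (0.62) and Oas2 (3.05), which entered the test only through the treated cultures and could hardly have come out lower. Ifit3 and Ifit3b were at 0.39 (SE 0.33) and 0.99 (SE 0.43) against control and did not pass, where with vehicle they were at 2.08 and 2.13, and the difference from vehicle did not pass either. Oasl1 was at 183.7, 99.7, 184.1 and 186.1 CPM with Compound-1 and Irf7 at 35.6, 16.6, 44.4 and 30.2, and only treated culture 2 stood low in both. Bst2 and Irgm1, which restricts vacuolar pathogens, passed as lower, at -0.51 (SE 0.17, BH-adjusted p = 0.0493 by edgeR) and -0.73 (SE 0.19, BH-adjusted p = 0.0159 by edgeR). Bst2 lost that call under 4 of 10 alternatives and 6 of 8 fits with a culture left out (adjusted p up to 0.367). Irf7, Oasl1, Rnf213 and Trim25, and Oas2 with the limit just given, held with each culture left out, whereas Stat2, Oas3 and Ddx58 were lost without control culture 3 or 4 or treated culture 1 or 3, Mx1 without control culture 3 or 4 or treated culture 3 and Irgm1 without control culture 2 (adjusted p up to 0.108, 0.0815, 0.0921, 0.0567 and 0.0517). Stat2 and Ddx58 were also lost without treated culture 4, and Stat2 and Oas3 without control culture 2.

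Compared directly, no gene of 36 passed in MYO5B(G519R) against MYO5BΔIEC by edgeR, DESeq2 or limma, and none had an unadjusted p under 0.05 in edgeR or DESeq2, where 0.00557% of all genes tested passed in edgeR and 4.3% had such a p. The count at an unadjusted p under 0.05 was 5 of 35 without MYO5B(G519R) culture 3 (14.3%, all genes 12.5%) and 7 of 36 without MYO5BΔIEC culture 4 (19.4%, all genes 8.12%). It was 13 of 36 with the replicate number as a block (36.1%, all genes 14.1%) and 2 of 36 with no filter on low counts (5.56%, all genes 5.08%). None of these passed after adjustment. This does not show that the models are alike. The log2 fold change was below 0 in 32 of 36 genes, with a median of -0.32 where that of all genes was -0.01. This comparison and that of Compound-1 against vehicle use the same MYO5BΔIEC vehicle cultures, which also enter the comparison with control. The shifts are therefore not independent. Within a culture the genes also moved together, so the 36 genes are not separate observations. The smallest p was that of Ddx58, lower by a log2 fold change of -0.42 (SE 0.21, BH-adjusted p = 0.838 by edgeR, unadjusted p = 0.06665 from a model across all genes). In the other direction it was Gbp3, at 0.35 (SE 0.89, BH-adjusted p = 0.939 by edgeR). Oasl1 was at -0.25 (SE 0.27) and Trim25 at -0.08 (SE 0.15).

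The interferons themselves were close to absent from the counts. Of 13 interferon genes, 5 (Ifnb1, Ifna1, Ifna4, Ifna5 and Ifng) were at 0 in all 16 cultures, the type III genes Ifnl2 and Ifnl3 had 1 count at most, and the highest was Ifnk with 15 counts in one culture. None entered a test. Of 6 receptor genes, Ifnlr1, the type III receptor chain found mostly on epithelium, rose from 12.2 ± 3.35 CPM (SD, n = 4) in control to 26.5 ± 1.68 in MYO5BΔIEC (log2 fold change 1.12, SE 0.20, BH-adjusted p = 0.00335 by edgeR) and 23.6 ± 3.07 in MYO5B(G519R) (log2 fold change 0.95, SE 0.20, BH-adjusted p = 0.00835 by edgeR). The other 5 did not pass in either model, among them Ifnar1 at 45.3 ± 5.16, 57.8 ± 5.45 and 50.6 ± 4.99 CPM in control, MYO5BΔIEC and MYO5B(G519R). Of the 5 kinases and STATs, Stat3 (log2 fold change 1.05 and 0.90) and Tyk2 (0.72 and 0.63) rose in both models. In each model 16.7% of the receptors and 40% of the kinases and STATs passed, on few genes. Of all genes, 27.4% passed in either direction in MYO5BΔIEC and 26.8% in MYO5B(G519R).

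Among 17 genes that act upstream of interferon, 15 were tested, and in each model Irf5, Ikbke, Ticam1 and Traf3 rose and Tank fell. That is 33.3% of the 15 in either direction, where 27.4% of all genes passed in MYO5BΔIEC and 26.8% in MYO5B(G519R), a share not far above the background. In MYO5BΔIEC the highest log2 fold changes of these were 1.56 for Irf5 and 0.78 for Ikbke, a kinase of IRF3 and IRF7, and that of Tank, an adaptor of this kinase, was -0.81. In MYO5B(G519R), Irf5 was at 1.23, Traf3 at 0.77 and Tank at -0.78. Of 9 inhibitors of the pathway, Pias3 and Pias4 rose in both models (0.85 and 0.46, then 0.69 and 0.62), and Socs2 and Ptpn2 fell in both (-1.11 and -0.75, then -1.26 and -0.61), with Pias1 lower in MYO5B(G519R) as well. That is 44.4% and 55.6% of the 9, on few genes, where 27.4% and 26.8% of all genes passed in either direction. Socs2 varied widely in control, at 75.1 ± 47.0 CPM (SD, n = 4). A further list of 44 interferon-stimulated genes gave 8 higher and 3 lower of 36 tested in MYO5BΔIEC and 5 higher and 3 lower of 35 in MYO5B(G519R), with median log2 fold changes of 0.53 and 0.19. These are 30.6% and 22.9% of those tested, near the 27.4% and 26.8% of all genes that passed, so the list did not stand apart by its count. Nlrc5 (2.36) and Apol9a (2.25) rose most in MYO5BΔIEC, and Ifitm3 and Nmi were lower in both models (-1.06 and -0.81, then -0.81 and -0.91). Nlrc5 was low as well, at 0.463 ± 0.203 CPM (SD, n = 4) in control and 2.37 ± 1.47 in MYO5BΔIEC. In MYO5B(G519R), Helz2 (1.29) and Znfx1 (0.99) rose most. With Compound-1 against vehicle, none of these genes passed.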

How the data were processed

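The RNA-seq data of 16 mouse jejunal enteroid cultures were used, and the sample labels placed 4 in each group: control, MYO5B(G519R), and MYO5BΔIEC with vehicle or with Compound-1. According to the methods and the submitters' processing notes, the authors used STAR 2.5 to align the read pairs to GRCm38 (mm10), parsed the alignments with TopHat and counted reads per gene with HTSeq 0.6.1. The deposited values are raw counts of 54532 genes and FPKM values that the authors made from those counts and gene length. The strand setting and the treatment of reads with several matches are not given in the sources used here. Rows of the authors' own comparisons were not used.

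The test was the quasi-likelihood F test of edgeR 4.0.16, run under R 4.3.3 on TMM-scaled counts of 2 groups per fit. A gene needed 10 counts in 2 or more libraries of the pair, and p-values were adjusted by Benjamini-Hochberg over all genes tested (threshold 0.05). SE is the log2 fold change divided by the root of its F value. Depth was 27804968 to 40101729 counts per culture. The code of the test was also tried on simulated counts, and the outcome is not used as support here. The 37 members, the role groups and the pathway and marker lists were chosen with earlier results of these data known. Values of every culture are given for the transcription factors and sensors, for the member of each other role with the largest change past the threshold in a model, and for the smallest p in each direction of the remaining comparisons. All other members are given by change, range or count, and pathway genes by count and by their largest changes.

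Alternatives were DESeq2 1.42.0, its size factors in edgeR, mitochondrial genes left out of the library sizes, other filters, a joint fit of all 4 groups, a replicate block, limma 3.58.1 on log2(FPKM + 1) and log2(FPKM + 0.1) made from the deposited FPKM, removal of the trend on gene length, and each culture left out. Promoters are RefSeq sequences on GRCm38.p6, and 8 members without an entry are not shown. P-values weigh each difference between groups against the spread between cultures, as modelled across all genes. Reads shared by near-identical genes were estimated as the share of 100-base transcript windows found in another gene's transcripts. Some genes of these lists are not reported here.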

Additional observations from a re-analysis of the deposited data

Results flagged for a closer look

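In each group of 4 cultures, a gene was marked where its highest or lowest culture lay far from the other 3, by Dixon's criterion for the gap over the range. Of 144 groups checked (36 genes in 4 groups), 9 were marked (6.25%), where chance marks about 1 in 20.

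Of the 9, 4 were low. Stat2 was at 27.1 CPM in MYO5BΔIEC culture 4, where the others were at 59.0 to 61.8, and at 24.4 CPM in treated culture 2, where the others were at 51.1 to 54.7. Trim25 was at 114 CPM in MYO5BΔIEC culture 4, below 158 to 166 in the others, and Oasl1 was at 99.7 CPM in treated culture 2, below 184 to 186. These are the cultures that were lowest in most of the 36 genes.

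The other 5 were high. In MYO5B(G519R) culture 3, Ddx58 was at 36.3 CPM against 22.1 to 23.5 in the others, and Gbp2 at 0.544 CPM, from 20 counts, against 0.0905 to 0.119. Igtp was at 2.68 CPM in treated culture 1 against 0.814 to 0.982. Among the controls, Isg15 was at 5.35 CPM in culture 2 against 2.40 to 2.74, and Gbp7 at 1.48 CPM in culture 4, from 40 counts, against 0.698 to 0.784.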

How the results depend on the processing

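No value changed direction after passing the test, under any alternative or with any culture left out. With each culture left out in turn, the count of genes past the threshold ranged from 6 to 24 in MYO5BΔIEC against control (17 with all cultures), from 3 to 13 in MYO5B(G519R) against control (6), and from 6 to 17 in treated enteroids against control (11), and was 0 throughout in the comparisons with MYO5BΔIEC enteroids. Under the other alternatives these counts were 13 to 22, 5 to 11 and 8 to 14, and 0. The one that moved by more than 1.5 times was DESeq2 in MYO5B(G519R) against control, with 11 genes. The cause was not tested. Besides the losses given in the report, 1 of 10 such alternatives ended the calls of Dhx58 and Oas2 in MYO5BΔIEC, of Oas3 in MYO5B(G519R) and of Oas3 with Compound-1 (adjusted p up to 0.0514, 0.052, 0.0539 and 0.051), and with Compound-1 the calls of Stat2 and Ddx58 held in 6 and 8 of 10 (adjusted p up to 0.0878 and 0.0666). The main test did not pair cultures by replicate number. Same-numbered cultures had correlated deviations over 0.1 in every pair of no comparison. The highest set was 0.118, 0.057, 0.414 and 0.524 for cultures 1 to 4 of MYO5B(G519R) against MYO5BΔIEC. There, MYO5B(G519R) cultures 1, 3 and 4 correlated most with the MYO5BΔIEC culture of the same number. In the other comparisons the values lay between -0.193 and 0.203. Whether same-numbered cultures share an origin was not tested. With the replicate number as a block, 16, 8 and 9 genes passed against control. In MYO5BΔIEC this lost Ifit3, Ifit3b, Mx2 and Zbp1 and gained Ifit1, Oas1a and Rsad2, and with Compound-1 it lost Stat2, Ddx58 and Bst2 and gained Oasl2, while MYO5B(G519R) gained Oas1a and Oasl2. The block gave 0 in the comparisons with MYO5BΔIEC, where the count at an unadjusted p under 0.05 was 13 of 36 for MYO5B(G519R) (36.1%, all genes 14.1%), against 0 without the block. Genes under about 20 counts, such as Gbp3 and part of the Oas2 values, allow no firm statement at this depth. Control counts that low also occurred in Mx2 (7 to 18 per culture), Ifit3b (10 to 26), Zbp1 (11 to 28) and Oas3 (9 to 74). These genes are among the 17 that passed in MYO5BΔIEC.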

Other observations

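Neighboring members of the same family had unequal values. On chromosome 19, the counts of Ifit2 gave a log2 fold change of 0.19 (SE 0.20) in MYO5BΔIEC against control, while those of Ifit3, the next gene, gave 2.08 (SE 0.60, edgeR adjusted p = 0.0259). On chromosome 5, Oas1a was at 0.70 (SE 0.28) and Oas3 at 2.98 (SE 0.76, edgeR adjusted p = 0.0155). The differences between genes were not tested.

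In the further list of interferon-stimulated genes, Ifitm2 was also lower in MYO5BΔIEC (log2 fold change -0.47, edgeR adjusted p = 0.0359) and Lgals9 in MYO5B(G519R) (-0.41, edgeR adjusted p = 0.0293), and Adar, the RNA-editing enzyme, was higher in both (0.78 and 0.73, edgeR adjusted p = 0.0131 and 0.0191).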
